A study of Mus musculus with 2 samples.

Results

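The Hox genes of interscapular brown fat were read with every non-control probe whose gene name was Hoxa, Hoxb, Hoxc or Hoxd followed by a number. There were 28 such genes among the 38354 gene and transcript names of the array, read by 32 of its 41174 probes.

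Brown fat from the interscapular depot of male C57BL/6 DKO mice, a double knockout in which Rora, a nuclear receptor gene, is among those lost (RORa-/-), was compared with that of male C57BL/6 WT mice. The labels give 4 mice per genotype, aged 2 to 3 months (8 to 12 weeks), sampled around circadian time 20. Each of 2 Agilent whole mouse genome arrays carried DKO and WT RNA in opposite dyes, one with DKO in Cy5 and the other with DKO in Cy3. The arrays count as 1 replicate per genotype, so no test between genotypes was possible. An SD over the arrays holds dye and measurement error, and the labels do not say whether the arrays received separate extracts. The labels restrict the loss to no cell type, and in whole tissue fewer cells of a type and less RNA per cell cannot be told apart. As a check of the labels, the Rora probes had background-subtracted signals of 44.2 and 22.7 in DKO, against 56.2 and 54.4 in WT, and of 19.9 and 12.7 in DKO, against 37.8 and 44.9 in WT. Their log2 ratios of DKO over WT averaged -0.38 ± 0.04 and -0.47 ± 0.10, and -0.96 ± 0.07 and -1.52 ± 0.14 with the scanner software's ratios. Both probes were below 0 on both arrays, and neither reached the size rule used for Hox genes.

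Hox genes encode homeodomain transcription factors that give cells their address along the head-to-tail axis of the body. They lie in the clusters Hoxa, Hoxb, Hoxc and Hoxd, and the number in a name gives the place within the cluster: low numbers are switched on towards the head and high numbers towards the tail. Adult mesenchymal cells, those of fat depots included, keep part of the code of the body region they came from, and the interscapular depot lies between the shoulder blades. Polycomb proteins hold unused Hox genes silent, trithorax and MLL proteins keep used ones active, and Pbx and Meis proteins bind DNA together with Hox proteins.

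ROR receptors bind DNA at an AGGTCA core, and the windows of 250 bases upstream of the annotated gene starts were searched for those letters on either strand (RefSeq, GRCm38.p6). Windows were at hand for 18 of the 28 genes, 20 windows in all, and 4 of the 20 held the letters (20%), against 4607 of all 32851 windows (14.02%). The 4 genes were Hoxc4, Hoxd3, Hoxd4 and Hoxd10. A match is a description of the letters and not a binding site. Hoxc4 (chr15:103034145-103034394, plus strand) is shown because its probe stood furthest above its background of all Hox probes, with the match in capitals. Hoxa7 (chr6:52218574-52218823, minus strand) is shown because its probe had the ratio furthest from 0, and its window held no match.
Hoxc4: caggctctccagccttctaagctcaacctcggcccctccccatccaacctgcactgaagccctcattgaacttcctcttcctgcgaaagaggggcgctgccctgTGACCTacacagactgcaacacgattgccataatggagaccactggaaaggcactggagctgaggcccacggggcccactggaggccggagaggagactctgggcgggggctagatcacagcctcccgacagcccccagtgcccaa
Hoxa7: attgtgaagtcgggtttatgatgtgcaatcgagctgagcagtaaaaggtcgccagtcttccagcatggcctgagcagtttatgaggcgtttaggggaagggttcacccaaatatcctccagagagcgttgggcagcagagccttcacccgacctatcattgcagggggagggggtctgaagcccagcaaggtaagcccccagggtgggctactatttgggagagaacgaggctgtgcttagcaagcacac

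Signal was present for most probes with a Hox gene name, and among these it was densest at positions 4 to 7. The scanner software flags a spot as well above background when it exceeds its background by 2.6 background SDs, and each probe has 4 such flags, for DKO and WT on each array. In all 4 channels, 21 of the 32 Hox probes were well above background (65.6%), against 75.1% of all probes. All 10 probes of positions 4 to 8 passed in every channel, against 2 of 7 at positions 1 to 3 and 9 of 15 at positions 9 to 13. These bands were drawn after the values were seen. The 10 probes lay at positions 4 to 7, since no Hox-named probe had position 8. At position 9, 5 of 6 passed. By cluster, the count was 7 of 10 in Hoxa, 5 of 8 in Hoxb, 4 of 4 in Hoxc and 5 of 10 in Hoxd.

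**Figure D1:**
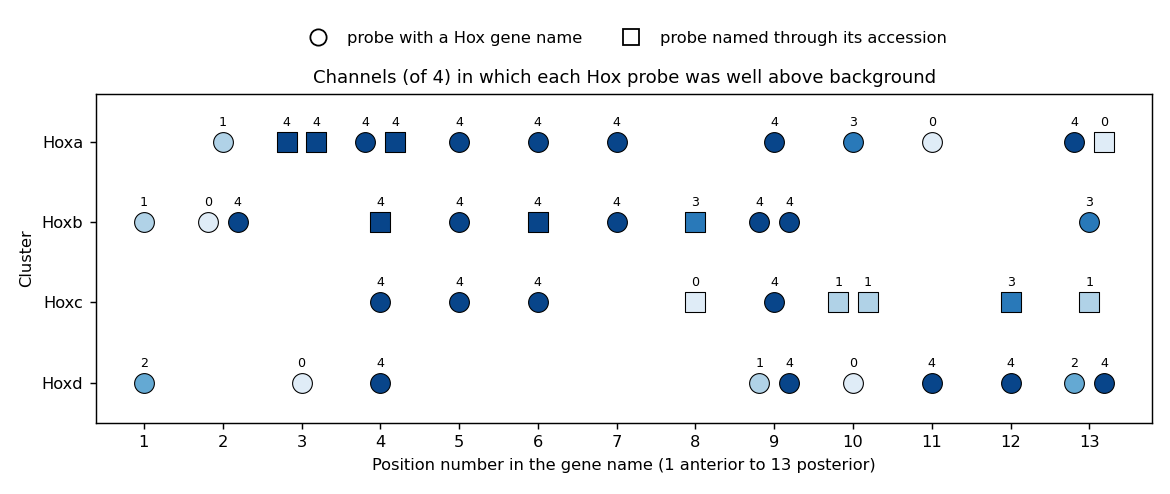
Each symbol is a Hox probe, placed by cluster (rows) and by the position number in its gene name (horizontal axis); its shade and the number above it give the channels, of 4, in which it was well above background. Circles are 31 of the probes with a Hox gene name and squares the 12 probes tied to a Hox gene through an accession. The circles at positions 4 to 7 all read 4, and position 8 has squares only.

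The flag is lenient, and a stricter threshold left fewer probes. A mean signal of at least 2 times the local background in all 4 channels was reached by 10 of the 32 Hox probes (31.3%), against 33.0% of all probes. Of these, 7 were among the 10 probes of positions 4 to 8, 3 among the 15 of positions 9 to 13 and 0 among the 7 of positions 1 to 3. The 10 probes were those of Hoxa4, Hoxa6 and Hoxa7, Hoxb7 and both probes of Hoxb9, Hoxc4, Hoxc5 and Hoxc6, and Hoxd12. Set against the 314 negative control spots of each channel, 28 Hox probes exceeded the 95th percentile of the controls in every channel and 16 exceeded the highest control. The flag was also passed by probes of genes known from other tissues: Gsh1, a homeobox gene of the embryonic brain, was at least 10.6 times its local background in every channel, and both skin marker probes passed. Whether each probe read its own transcript was not tested.

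**Figure D2:**
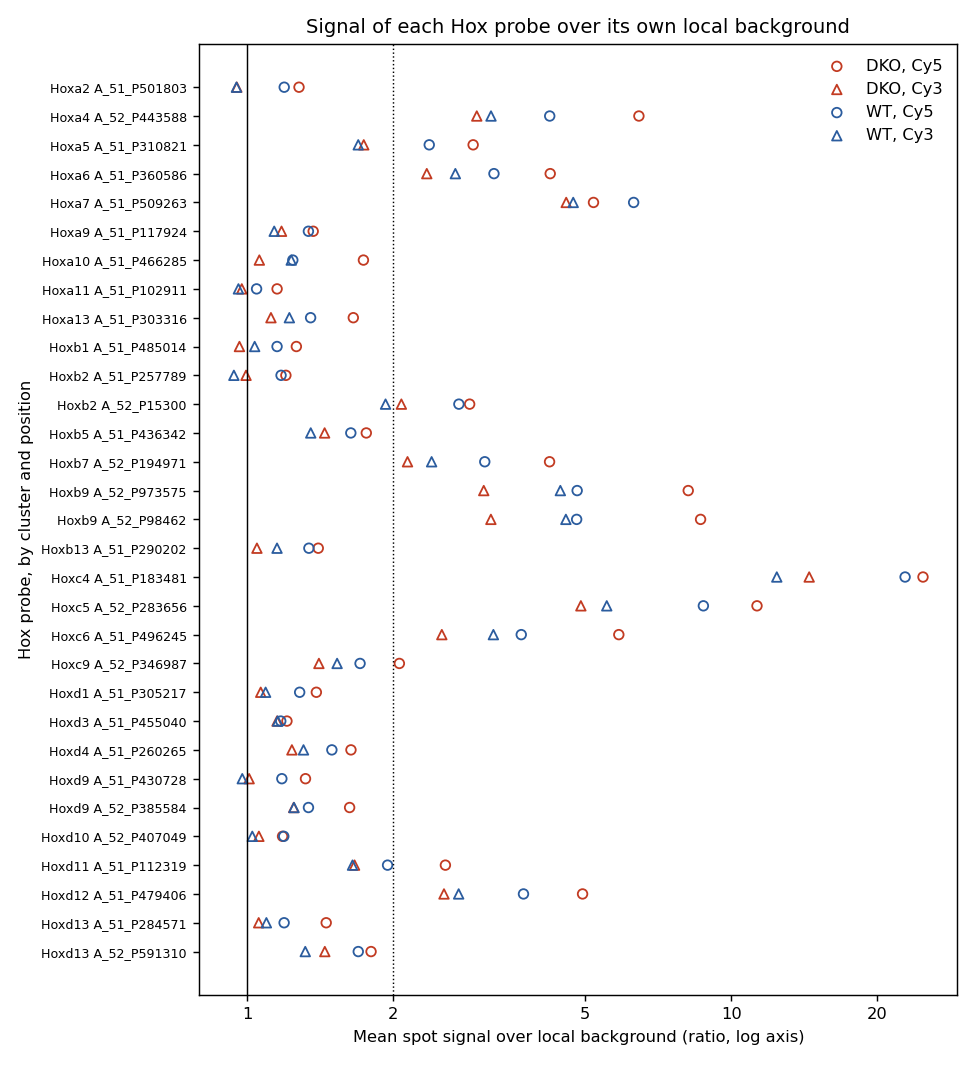
Mean spot signal divided by the local background (log axis) for 31 Hox probes, with DKO in red and WT in blue, Cy5 as circles and Cy3 as triangles. The solid line marks a signal equal to background and the dotted line 2 times background; Hoxc4 lies furthest to the right, and most position 1 to 3 and position 10 probes lie near the solid line.

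The Hoxc cluster gave the probe with the strongest signal over its own background. Hoxc4 had background-subtracted signals of 1411 (Cy5) and 920.1 (Cy3) in DKO, against 854 (Cy3) and 1246 (Cy5) in WT. Its mean signal was 24.9 and 14.5 times local background in DKO, and 12.4 and 22.9 times in WT. The raw signals of the genotypes overlapped, and in each the Cy5 value was the higher. Over all probes the median signal was 70.7 (Cy5) and 42.4 (Cy3) in DKO, against 48.0 (Cy3) and 50.5 (Cy5) in WT. That median overlapped in the same way, so overlap of raw signals, here and below, does not compare the genotypes. Hoxc5 had background-subtracted signals of 581 (Cy5) and 271 (Cy3) in DKO, against 317 (Cy3) and 433 (Cy5) in WT. Hoxc6, whose forward limit lies near the forelimb level, had 287 (Cy5) and 119.8 (Cy3) in DKO, against 174 (Cy3) and 161 (Cy5) in WT. Both overlapped between genotypes as Hoxc4 did. Hoxc9, a thoracic gene that has been tied to fat depots, passed in all channels at 1.41 to 2.06 times local background.

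Among the Hox-named probes of the Hoxa cluster, those of Hoxa4, Hoxa6 and Hoxa7 stood highest over background. A Hoxa3 probe without a Hox name, described below, was at 2.21 to 3.28 times local background. Hoxa4 had 322 (Cy5) and 158 (Cy3) in DKO, against 171 (Cy3) and 188 (Cy5) in WT. Hoxa6 had 191 (Cy5) and 101 (Cy3) in DKO, against 126 (Cy3) and 129 (Cy5) in WT. Hoxa5, which patterns the border of neck and chest and is known from fat depots, had 115 (Cy5) and 60.4 (Cy3) in DKO, against 59.2 (Cy3) and 80.9 (Cy5) in WT. The raw signals of Hoxa4, Hoxa5 and Hoxa6 overlapped between genotypes, as the median over all probes did. Hoxa7 had 246 (Cy5) and 240.2 (Cy3) in DKO, against 274 (Cy3) and 301 (Cy5) in WT. These signals are not corrected for dye. After normalisation its log2 ratio of DKO over WT was -0.71 where DKO was in Cy5 and 0.07 where it was in Cy3. Hoxa9 and Hoxa13 passed in all 4 channels at 1.12 to 1.66 times local background, Hoxa10 in 3, Hoxa2 in 1 and Hoxa11 in none.

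In the Hoxb cluster the probes of Hoxb9, a gene of the thoracic level, stood highest over background. They had 424 and 443 (Cy5) and 153 and 165 (Cy3) in DKO, against 264 and 268 (Cy3) and 227 and 221 (Cy5) in WT. The pair of probes read nearly the same in each channel. Hoxb7 had 186 (Cy5) and 92.0 (Cy3) in DKO, against 113 (Cy3) and 123 (Cy5) in WT. Hoxb2, a hindbrain gene, was read by a pair of probes that disagreed: one passed in all channels, at 1.93 to 2.88 times local background, and the other in none. The file describes the second one as an unknown transcript. Hoxb5 passed in all channels, Hoxb13, a gene of the tail end and the prostate, in 3, and Hoxb1 in 1.

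In the Hoxd cluster Hoxd12, a gene of the digits and the posterior body, was the only probe at 2 times local background in all channels. It had 228 (Cy5) and 117 (Cy3) in DKO, against 139 (Cy3) and 159 (Cy5) in WT. Hoxd11, a gene of the forearm and sacral region, had 88.7 (Cy5) and 46.5 (Cy3) in DKO, against 55.6 (Cy3) and 54.3 (Cy5) in WT. The raw signals of both overlapped between genotypes, as the median over all probes did. Hoxd4 passed in all channels at 1.24 to 1.64 times local background, and Hoxd3 and Hoxd10 passed in none. Hoxd9 and Hoxd13 each had a pair of probes that disagreed, with 4 channels against 1 for Hoxd9 and 4 against 2 for Hoxd13.

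Another 12 probes carry no Hox name in the files but match 10 Hox genes through an accession, 8 of them genes with no Hox-named probe. Both Hoxa3 probes, the second Hoxa4 probe, Hoxb4 and Hoxb6 passed in all 4 channels, Hoxb8 and Hoxc12 passed in 3, Hoxc10 (both probes) and Hoxc13 in 1, and a second Hoxa13 probe in none, unlike the Hox-named Hoxa13 probe, which passed in 4. Hoxc8, a gene of the shoulder and chest level that has been tied to adipocytes, passed in none: its background-subtracted signals were 7.30 (Cy5) and 7.11 (Cy3) in DKO, against 7.24 (Cy3) and 8.97 (Cy5) in WT. Alone, these 12 probes did not repeat the peak at positions 4 to 8. There 3 of 5 passed, against 2 of 2 at positions 1 to 3 and 0 of 5 at positions 9 to 13. The probes that failed at positions 4 to 8 were those of Hoxb8 and Hoxc8, the only ones of position 8. At 2 times local background the counts were 0 of 5, 1 of 2 and 0 of 5. With these probes added, which was done after seeing the values, 26 of 44 passed, 13 of 15 at positions 4 to 8, 4 of 9 at positions 1 to 3 and 9 of 20 at positions 9 to 13. At 2 times local background the counts became 7 of 15 at positions 4 to 8, 1 of 9 at positions 1 to 3, a Hoxa3 probe, and 3 of 20 at positions 9 to 13. The Hoxc count by the flag became 4 of 9, so the full pass of that cluster held for the Hox-named probes only.

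No Hox probe met the size rule for a difference between DKO and WT. A probe was called where the arrays averaged 2-fold or more, neither showed less than 1.5-fold in that direction, and the higher genotype passed the background flag on each array. Of the 32 Hox probes, 23 were measured, meaning well above background in at least 1 genotype on both arrays, and 0 were called higher and 0 lower in DKO. Over all 32424 measured probes, 32 were higher (0.0987%) and 7 lower (0.0216%), 0.12% in either direction, so 0 of 23 is near that background. The same rule applied to the dye direction called 1 probe (0.00308%), which was no Hox probe. With the software's own ratios the split over all probes was 61 higher and 33 lower, and no Hox probe was called there either. With 1 replicate per genotype there is no test and no p-value between genotypes.

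**Figure D3:**
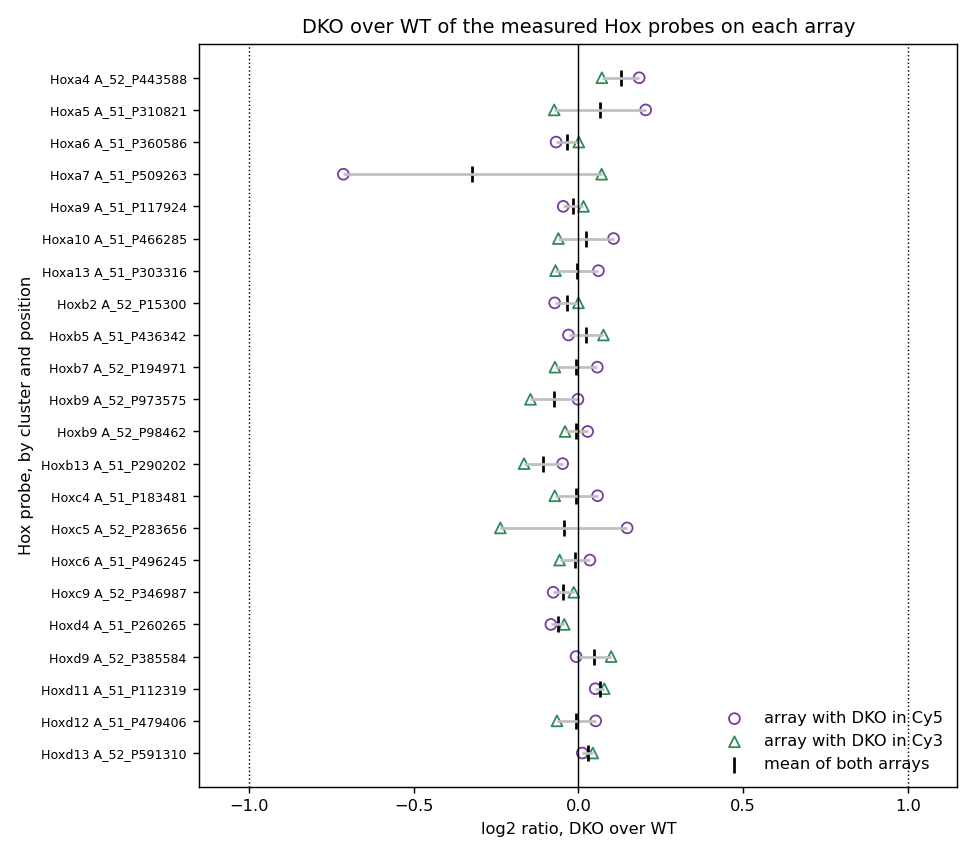
The log2 ratio of DKO over WT at 22 measured Hox probes (rows) with DKO in Cy5 (circles) and with DKO in Cy3 (triangles), with the mean of both as a bar. Dotted lines mark 2-fold in either direction; 19 of these 22 means lie within 0.1 of 0, and Hoxa7 has the widest gap between arrays.

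Log2 ratios of DKO over WT, normalised within each array and turned to one direction despite the dye swap, had a median of -0.01 over the 23 Hox probes and 0.00 over all measured probes. The Hox means ranged from -0.32 to 0.13, and 20 of 23 lay within 0.1 of 0 (87.0%), against 83.2% of all measured probes. The Hox medians were 0.01 where DKO was in Cy5 and -0.04 where it was in Cy3. By cluster the medians were -0.01 for Hoxa, -0.02 for Hoxb, -0.03 for Hoxc and 0.03 for Hoxd. The SD between arrays of a single Hox probe had a median of 0.08. Signs agreed on both arrays at 7 of the 23 Hox probes, 3 above 0 (13.04%, against 19.5% of all) and 4 below 0 (17.4%, against 17.8%). Over the 23 probes the ratios of the arrays had a Pearson r of -0.34, and over all 32424 measured probes -0.02; these points share the same 2 hybridisations and dyes. The correction adds an offset that draws the ratios of dim probes towards 0, so for some probes the ratio made by the software is added.

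Hoxa7 had the mean furthest from 0, and it rested on 1 array. Its log2 ratio was -0.71 where DKO was in Cy5 and 0.07 where DKO was in Cy3, a mean of -0.32 ± 0.55 (SD, n = 2 arrays). The software's ratios were -0.85 and 0.05. Its error model, which knows only the noise within an array, gave p-values of 1.85e-06 and 0.751. On the first of these arrays 1 of 23 Hox probes (4.35%) had an error-model p under 0.01, against 4.52% of all measured probes. On the other array the count was 0 of 23, against 5.09%. A p under 0.01 in the same direction on each array was found for 0 Hox probes, against 160 higher (0.493%) and 137 lower (0.423%) over all measured probes. The SD exceeded the mean, so no difference beyond the spread between arrays was seen at Hoxa7.

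**Figure D4:**
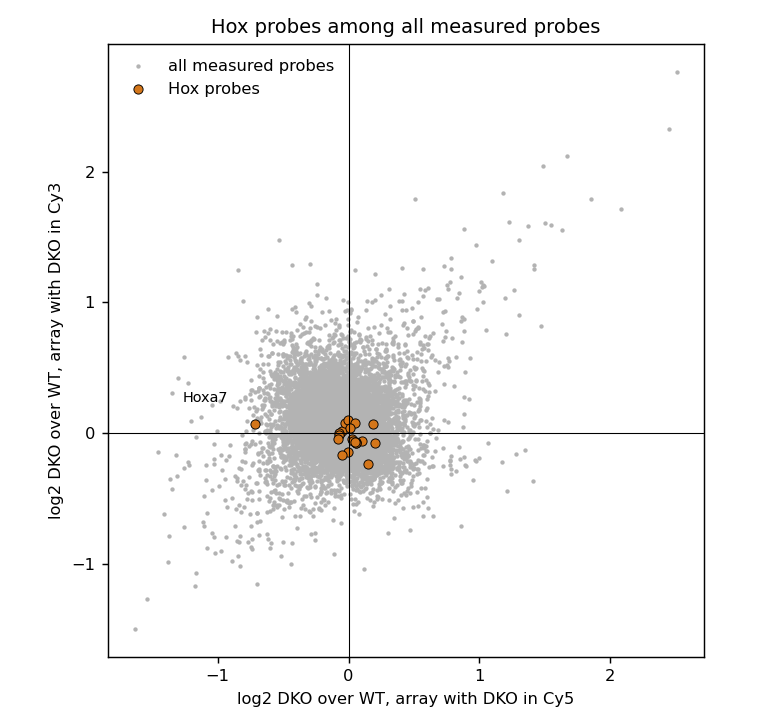
The log2 ratio of DKO over WT on the array with DKO in Cy5 (horizontal axis) against the array with DKO in Cy3 (vertical axis) for all 32424 measured probes (grey) and 22 measured Hox probes (orange). The Hox probes sit in the centre of the cloud, and Hoxa7 lies apart on the horizontal axis only, at -0.71 and 0.07.

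The probes that kept their sign on both arrays moved little. Among the Hox-named probes the highest was that of Hoxa4, at 0.18 and 0.07 with a mean of 0.13 ± 0.08. With the software's ratios it was at 0.17 ± 0.07. Hoxd11 followed at 0.06 ± 0.02 and the brighter Hoxd13 probe at 0.03 ± 0.02. The second Hoxa4 probe, named through an accession, went the other way, at -0.03 and -0.02 with a mean of -0.03 ± 0.01. The Hoxa4 probes thus disagreed in direction. The lowest was Hoxb13, at -0.05 and -0.17 with a mean of -0.11 ± 0.08, and at -0.33 ± 0.17 with the software's ratios; it was well above background in 3 of 4 channels. Hoxd4 averaged -0.06 ± 0.03, Hoxc9 -0.05 ± 0.04 and one Hoxb9 probe -0.07 ± 0.10 (SD, n = 2 arrays throughout). For all of these the change stayed under 1.5-fold on both arrays.

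Of the 10 Hox probes at 2 times local background in all channels, 8 had means within 0.1 of 0 (80%, against 73.1% of all such probes), and the exceptions were Hoxa7 and Hoxa4 above. Hoxc4 averaged -0.01 ± 0.09, Hoxc6 -0.01 ± 0.06, Hoxd12 -0.01 ± 0.08, Hoxb7 -0.01 ± 0.09 and the other Hoxb9 probe -0.01 ± 0.05. Hoxa6 averaged -0.03 ± 0.05. Hoxc5 moved in opposite directions, at 0.15 and -0.24 with a mean of -0.04 ± 0.27, and so did Hoxa5, at 0.20 and -0.07 with a mean of 0.07 ± 0.20. Of the 12 probes named through an accession, 7 were measured, with a median of -0.03, and 0 were called. On both arrays 3 of these 7 were below 0 (17.8% of all) and 1 was above (19.5% of all). The latter was Hoxc12, named after its values were seen, at 0.07 and 0.13 with a mean of 0.10 ± 0.04. With the software's ratios Hoxc12 was at 0.52 ± 0.09, and it was well above background in 3 of 4 channels.

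The genes that act with or on Hox genes had 0 calls in each list, which is near the 0.12% of all measured probes called and says nothing particular about them. None of 6 measured probes of Hox cofactors was called (median 0.01), and the Pbx3 probes were at 0.11 ± 0.02 and -0.08 ± 0.32. Of the Polycomb genes 20 probes were measured and 0 called (median 0.02), with Phc2, part of a Polycomb repressive complex, at 0.18 ± 0.30. Of the trithorax and MLL complex genes 11 were measured and 0 called (median -0.00). The Ash2l probes were at 0.11 ± 0.01 and 0.01 ± 0.13, and the Dpy30 probes at -0.11 ± 0.04 and -0.09 ± 0.15. Among upstream and neighbouring homeobox genes 6 were measured and 0 called (median -0.01). In retinoic acid signalling, which sets Hox borders in embryos, 12 were measured and 0 called (median -0.02), with 4 of 12 below 0 on both arrays (17.8% of all) and 1 of 12 above. Rxrg was at 0.21 ± 0.39, with opposite signs on the arrays. Cyp26b1, which breaks down retinoic acid and is named after its values were seen, was furthest from 0 at -0.18 and -0.34, a mean of -0.26 ± 0.11. For Gdf11 signalling 1 probe was measured and 0 called, with Tgfbr1 at 0.01 ± 0.23.

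Other genes of body position gave 28 measured probes and 0 calls, with a median of 0.01 against 0.00 over all measured probes. Alx4 averaged -0.01 ± 0.18 and the brighter Pax3 probe 0.02 ± 0.10. The highest of the list was Zic1, a gene high in brown fat, named here after its values were seen. Its probes were at 0.60 and 0.54 where DKO was in Cy5 and at 0.19 and 0.18 where it was in Cy3, with means of 0.39 ± 0.29 and 0.36 ± 0.25.

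Markers of the tissue and of other cell types were read on the same arrays. Brown adipocyte markers were present, with Ucp1 at least 223 times local background in every channel. Of 12 measured probes 2 were called higher (median 0.47): Dio2, which activates thyroid hormone, at 1.89 ± 0.32 and Elovl3 at 1.02 ± 0.02. On both arrays 9 of the 12 were above 0 and 1 was below 0, Cidea at -0.16 and -0.12. Skeletal muscle markers had 2 of 13 called higher (median 0.63), Eno3 at 1.21 ± 0.33 and the dimmer Myh2 probe at 1.02 ± 0.34. The brighter Myh2 probe averaged 0.97 ± 0.02 and was not called. Of these muscle probes, 9 of 13 were above 0 and 2 of 13 below 0 on both arrays. White adipocyte markers had 1 of 4 called lower (median 0.05), Lep at -1.08 ± 0.42, while Agt at 0.30 and Retn at 0.08 were above 0 on both arrays. Over all measured probes 0.0987% were called higher and 0.0216% lower, and 19.5% were above 0 and 17.8% below 0 on both arrays. None was called among 7 pan-adipocyte (median 0.07), 8 fibroblast (-0.07), 10 endothelial (0.01), 4 macrophage (0.05), 2 skin (-0.03) and 6 nerve and Schwann cell probes (-0.06). The part of these shifts in the Hox ratios was not tested.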

How the data were processed

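RNA of interscapular brown fat from DKO and WT mice was measured on 2 Agilent arrays with the dyes reversed. Not given in the sources used here are any pooling of the mice and the extracts that each array received. The levels of some genes are not reported here, and the figures leave out 1 Hox probe.

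Agilent Feature Extraction 7.5 turned the scans into spot values for the authors, per the submitters' processing notes. The deposited spot files hold linear intensity values and flags, per the file headers. Red over green as a log10 ratio is deposited beside them, after background subtraction and dye normalisation, with a p-value of each from the software's error model, per the file headers. The deposited value table holds log2 ratios of red over green, matching the spot files within 0.001 at 40962 of 41001 and 41101 of 41141 values. The labels name a further processing system for that table, with its steps, centring included, unstated; both columns had a median of 0.

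Mean signals were corrected with normexp (offset 50) and loess-normalised within arrays in limma 3.58.1 under R 4.3.3. Outlier spots were left out (no Hox spot was one), saturated spots kept, and spots of a probe averaged. The size rule was tested on simulated data. The number of arrays limits the precision. Figures and counts were made with Python 3.11.15.

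The Hox probes named are the 6 highest and 6 lowest that kept their sign on both arrays (only 3 and 4 did), the 3 furthest above background per cluster, genes with several probes, those well above background in no channel, and Hoxa5, Hoxc8, Hoxc9 and Hoxc10. From each other list up to 3 members are named, called ones first. Others were named after their values were seen. Members and lists were chosen with earlier results of these data known. Accessions were matched to RefSeq (GRCm38.p6) for names only. Alternatives were another offset, the software's ratios, the value table, centring on the median, loess on detected probes, signals as medians, other detection and size thresholds, and each array alone.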

Additional observations from a re-analysis of the deposited data

How the results depend on the processing

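No Hox probe was called in either direction under any of the alternatives tried. The count of Hox probes well above background in all channels, 21, became 32 with the software's flag for a positive and significant signal and 10 with a signal of 2 times local background, a threshold chosen after seeing the data. It ranged from 21 to 24 on single arrays. The median Hox ratio, -0.01, was 0.02 with median centring, which moved the median of all probes to 0.04. With each array analysed alone it ranged from -0.04 to 0.03, over a set of measured probes that differed from the 23 above. Over those 23 the medians were 0.01 where DKO was in Cy5 and -0.04 where it was in Cy3. Over all probes, 32 higher and 7 lower became 61 and 33 with the software's ratios and with the value table, 104 and 74 at 1.5-fold, and 160 and 137 by the error model on each array (0.493% and 0.423%). An offset of 16 gave 13 lower. On single arrays the counts ranged from 33 to 65 higher and from 9 to 39 lower. Of the 20 named Hox probes with ratios, 11 changed sign with median centring 4 with median signals, 7 with only the array that had DKO in Cy5 and 6 with only the other. No paired analysis was possible because each genotype has 1 replicate. Dim signal limits the Hox results: all but 10 of the 32 probes were under 2 times local background in a channel or more, where ratios are drawn towards 0.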
